A study of Mus musculus with 27 samples.

Results

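The genes described here are 9 myelin and oligodendrocyte genes, Mbp, Mog, Mag, Mobp, Cnp, Mal, Cldn11, Opalin and Olig2. They were chosen by symbol, as the rows of the count table whose Ensembl gene ID carries one of these names in the GENCODE M21 annotation. All 9 were found among the 55487 genes of the table, and all 9 were among the 20271 genes tested, which reached 10 counts or more in 4 or more libraries. The libraries are bulk mRNA sequencing of hippocampus and of cortex, taken on the side away from the infusion. The mice were wild-type C57Bl/6J males aged 8 weeks. For 14 days an osmotic pump delivered 0.25 μl per hour into the right lateral ventricle. The pump held α-IgLON5#1, autoantibodies against the neuronal surface protein IgLON5, or control human IgG (pCtrl), or PBS. The identity of the control IgG is in doubt, since the labels describe a monoclonal antibody (mCtrl) and the study's methods a pool from healthy serum (pCtrl). Hippocampus was sequenced from 5 PBS, 4 pCtrl and 4 α-IgLON5#1 mice, and cortex from 5 PBS, 5 pCtrl and 4 α-IgLON5#1 mice. In all 14 mice gave 27 libraries, and 13 mice gave both tissues. Each mouse is named below by the number in its label.

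Oligodendrocytes wrap axons of the brain and spinal cord in myelin, a stack of compacted membrane that speeds conduction and feeds the axon. They arise from dividing precursor cells, which continue to mature in the adult brain, and the switch to myelination turns on a shared set of genes under the factors Olig2, Sox10 and Myrf. Mbp (myelin basic protein) holds the inner faces of the membrane together. Mobp is another small basic protein of compact myelin. Cnp is an enzyme of the non-compacted cytoplasmic channels. Mal is a proteolipid that serves in sorting membrane proteins to myelin. Cldn11 forms the tight junctions between the turns of the sheath. Mag faces the axon at the innermost turn, Mog lies on the outermost turn, and Opalin is a transmembrane glycoprotein of the oligodendrocyte. Olig2 is a transcription factor of the whole lineage, precursors included.

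RefSeq promoter windows (GRCm38.p6, 250 bases before to 50 bases after the start) were found for 8 of the 9 genes. There were 10 windows, several of them for Mag. A gene was counted if any of its windows matched, while the shares over all windows below are per window. They were searched on both strands for ACAAAG, the core letters bound by Sox10, for CTGGNAC, which holds the letters bound by Myrf, and for CAGCTG, an E-box of the kind bound by basic helix-loop-helix factors. ACAAAG was in the window of 4 genes and in 18.7% of the 32851 windows of the same length. CTGGNAC was in the window of 4 genes and in 19.3% of all windows, and CAGCTG was in 1 and in 16.3%. The windows below are those of the gene with the most matches (Mobp, with 6 of ACAAAG), the gene with all 3 motifs (Opalin), the gene whose difference between treatments was largest (Mal) and the gene that followed the others least (Olig2). The sequences read 5′ to 3′ on the gene's strand, and capitals mark the matches on either strand. Matches of different motifs did not overlap. Mal and Olig2 held none of the 3, which says only that these letters are not in these windows.
Mobp, chr9:120149492-120149791, plus strand: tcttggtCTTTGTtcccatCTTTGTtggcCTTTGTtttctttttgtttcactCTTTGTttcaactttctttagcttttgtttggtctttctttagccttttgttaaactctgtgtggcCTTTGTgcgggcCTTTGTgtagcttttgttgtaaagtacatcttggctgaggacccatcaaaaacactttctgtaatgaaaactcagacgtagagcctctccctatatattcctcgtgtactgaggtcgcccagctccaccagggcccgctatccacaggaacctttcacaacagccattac
Opalin, chr19:41077064-41077363, minus strand: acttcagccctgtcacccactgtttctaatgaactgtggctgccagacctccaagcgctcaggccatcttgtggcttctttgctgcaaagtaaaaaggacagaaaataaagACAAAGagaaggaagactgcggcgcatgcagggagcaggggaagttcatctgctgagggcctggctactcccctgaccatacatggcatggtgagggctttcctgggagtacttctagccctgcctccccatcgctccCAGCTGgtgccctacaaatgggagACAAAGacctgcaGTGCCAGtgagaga
Mal, chr2:127656646-127656945, minus strand: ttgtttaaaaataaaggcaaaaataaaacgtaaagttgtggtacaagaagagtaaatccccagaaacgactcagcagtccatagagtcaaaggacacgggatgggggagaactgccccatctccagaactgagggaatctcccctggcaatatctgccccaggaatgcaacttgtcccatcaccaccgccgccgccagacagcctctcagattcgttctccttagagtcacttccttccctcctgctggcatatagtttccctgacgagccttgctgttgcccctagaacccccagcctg
Olig2, chr16:91225300-91225599, plus strand: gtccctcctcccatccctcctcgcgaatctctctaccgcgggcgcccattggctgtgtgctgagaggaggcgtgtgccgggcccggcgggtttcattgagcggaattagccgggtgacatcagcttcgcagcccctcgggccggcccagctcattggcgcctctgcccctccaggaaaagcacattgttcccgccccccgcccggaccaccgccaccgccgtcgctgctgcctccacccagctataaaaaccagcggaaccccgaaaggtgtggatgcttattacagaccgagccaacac

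In the GRCm38 build, Mbp spans chr18:82475146-82585637, Mog chr17:37010743-37023398, Mag chr7:30899176-30914873 and Mobp chr9:120149707-120181484. Cnp spans chr11:100574904-100591729, Mal chr2:127633226-127656695 and Cldn11 chr3:31149920-31164324. Opalin spans chr19:41061710-41077113 and Olig2 chr16:91225457-91228677. Mbp, Mobp, Cnp, Cldn11 and Olig2 lie on the plus strand and the others on the minus strand. Cnp overlaps Dnajc7 on the opposite strand, Mobp overlaps Gm38642 on the same strand, and Mbp and Mog overlap a pseudogene and a small RNA gene. The use of strand in the counting is not given in the sources used here, so reads in these overlaps could not be assigned. The Mbp locus also makes golli transcripts, which are not confined to myelin, and the counts do not separate them.

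Total counts ran from 19385642 to 58550621 per library. The labels give the cell type as neurons, but the material is tissue. The summed level of 8 neuron markers was 8392 to 11761 CPM (counts scaled to a common library size), that of 8 astrocyte markers 4802 to 7353 CPM and that of the 9 genes 1354 to 3564 CPM over all 27 libraries. The contrast of cortical with hippocampal neuron genes (the mean log2 CPM of the first list minus that of the second, called the composition score below) was 1.96 to 2.98 in the cortices and below 0 in the hippocampi. Within the hippocampi, the pCtrl libraries of mice 37 and 10 stood apart with scores of -0.06 and -0.72, while the other 11 lay between -2.82 and -1.56. Several results that use these libraries are given with and without them.

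Scaled per length, the levels of the 9 genes differed widely. Mbp was highest at 163 ± 36.1 CPM per kb of exon (SD, n = 27 libraries). Mobp (57.6 ± 15.04), Cnp (56.4 ± 12.03), Cldn11 (52.5 ± 12.99) and Mal (46.2 ± 13.2 CPM per kb) formed a group of neighbors whose SDs over libraries overlapped. Mag (24.9 ± 5.67 CPM per kb) and Mog (19.002 ± 4.83 CPM per kb) followed and overlapped each other within 1 SD. These genes moved together between libraries (Pearson's r of Mag with Mog 0.93, centered on group means). The SDs therefore do not give the spread of a difference within a library. Olig2 had 8.93 ± 1.03 and Opalin 5.22 ± 1.23 CPM per kb. These lengths join all annotated exons, and the order was the same with the mean length of the principal transcripts. The groupings were not. Mbp then rose to 2168 ± 479 CPM per kb, and Olig2 and Opalin came to 8.93 and 8.36. Mobp was 257 ± 67.1 and Cnp 87.0 ± 18.6 CPM per kb, apart by more than 1 SD from Cldn11 (52.5 ± 12.99) and Mal (46.2 ± 13.2). Mag was 41.7 ± 9.51 against 19.002 ± 4.83 CPM per kb for Mog, and these SDs did not overlap.

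Between libraries of the same group, most of the genes moved together, with exceptions in the α-IgLON5#1 cortices. Mbp in the PBS hippocampi was 1992, 1441, 1237, 952 and 1364 CPM in mice 14, 32, 33, 38 and 74. Mal in the same libraries was 186, 138, 117, 90.1 and 146 CPM. Mouse 14 was the highest and mouse 38 the lowest for both genes. Of the 9 genes, 8 were highest in mouse 14 and 9 lowest in mouse 38 among PBS hippocampi. Among pCtrl hippocampi, Mbp was 2064, 1297, 1722 and 1236 CPM in mice 10, 15, 37 and 75, and 9 of the 9 genes were highest in mouse 10. Over all 27 libraries, the pCtrl hippocampus of mouse 10 held the highest value of each of the 9 genes, and the pCtrl cortex of mouse 11 (Mbp 803 CPM) the lowest value of 7. The lowest Opalin value (10.3 CPM) was in the α-IgLON5#1 hippocampus of mouse 17 and the lowest Olig2 value (18.2 CPM) in the α-IgLON5#1 cortex of mouse 16. The range from the lowest to the highest library was 2.57-fold for Mbp, 2.98-fold for Cldn11 and 1.55-fold for Olig2.

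**Figure D1:**
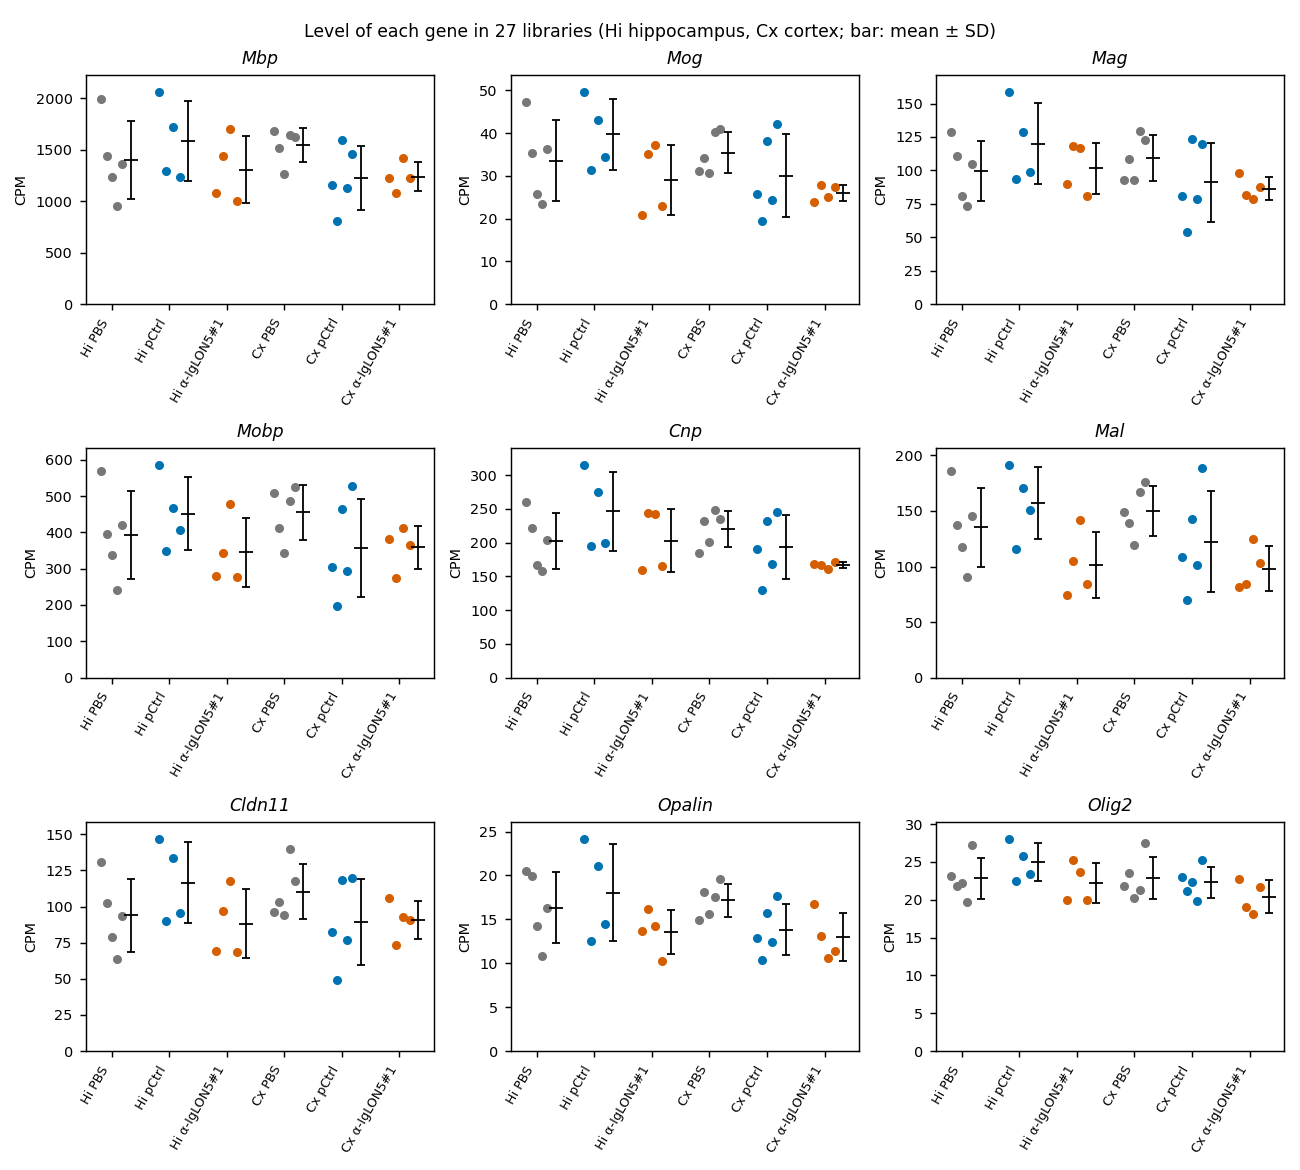
Each panel gives one gene, with its level in CPM (linear axis from 0) in the 27 libraries by tissue and treatment; points are libraries, and the bar is the group mean ± SD. Hi is hippocampus and Cx cortex. The groups overlap for most genes, and Cnp in the 4 α-IgLON5#1 cortices is the tightest group, between 161 and 172 CPM.

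To describe this shared movement, each gene's log2 CPM was centered on its group mean. Pearson's r of a gene with the mean of the other 8 was 0.97 for Cldn11, 0.96 for Mag, 0.95 for Cnp and Mog, 0.93 for Mbp and Mobp and 0.90 for Mal (27 libraries). It was lower for Opalin (0.81) and lowest for Olig2 (0.64), the gene that precursors also express. The SD of these deviations was 0.40 log2 for Mobp, 0.32 for Mbp, 0.29 for Cnp and 0.16 for Olig2. Between pairs of the 9 genes, r ran from 0.69 to 0.98 in hippocampus and from 0.33 (Mbp with Olig2) to 0.96 in cortex, where Mal with Opalin gave 0.48. In the α-IgLON5#1 cortices, mouse 16 was the lowest for 4 of the 9 genes and the highest for 3, and mouse 8 the lowest for 2 and the highest for 4. All points of these correlations come from the same libraries, so they share depth and dissection.

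**Figure D2:**
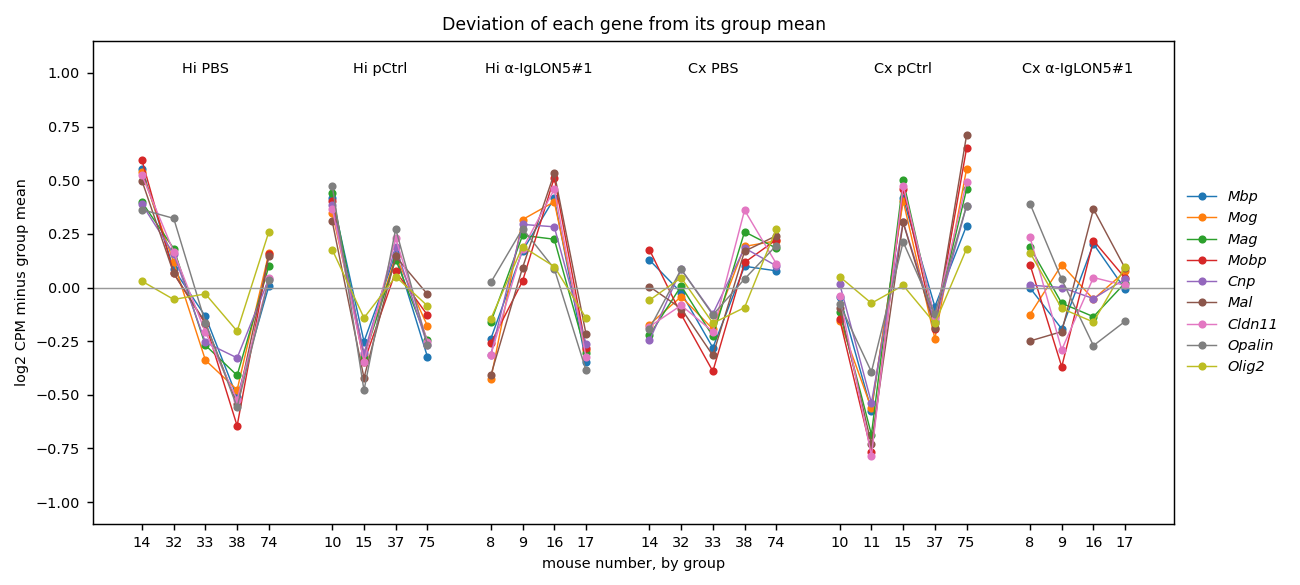
The deviation of each of the 9 genes from its group mean (log2 CPM, vertical axis) is drawn for each mouse, by group; lines join the libraries of a group and carry no order. The lines run close together in the hippocampi and drop together in the pCtrl cortex of mouse 11, they cross in the α-IgLON5#1 cortices, and the points of Olig2 vary least over all libraries.

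Of the 10768 other genes with a mean log2 CPM above 3, those most like the mean of the 9 included Tspan2 (r = 0.95), Gatm (0.94), Ermn (0.93) and Fa2h (0.93). Ermn encodes a cytoskeletal protein of the oligodendrocyte, and Fa2h the enzyme that hydroxylates myelin lipids. Gatm makes the precursor of creatine. The list of 23 other myelin sheath and mature oligodendrocyte genes followed the 9 genes within both tissues (r = 0.95 in 13 hippocampi and 0.92 in 14 cortices). Genes of newly formed oligodendrocytes followed less closely (0.83 and 0.76). The precursor list did not rise and fall with them (-0.09 and 0.24), and its median r over 10 genes was 0.05. In bulk tissue, fewer cells of a type and less RNA per cell cannot be told apart.

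Other properties of the libraries were set beside the shared level, also as descriptions. In cortex the r with log2 total counts was 0.61, and 0.28 without the 2 libraries farthest from the median depth. In hippocampus it was 0.05. The composition score ran against the 9 genes in cortex (r = -0.74) and not in hippocampus (-0.02). Choroid plexus genes gave -0.59 in hippocampus and 0.40 in cortex, and thalamus genes 0.34 and 0.66. Without the 2 libraries farthest from the median of each list, these were -0.53 and 0.42 for choroid plexus and -0.02 and 0.41 for thalamus, and the composition score gave -0.80 in cortex. The part of these in the shared level was not tested.

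The deviations of the 9 genes did not go together in the 2 tissues of a mouse. Among the 13 mice with both tissues, the mean deviation of the 9 genes had the same sign in hippocampus and cortex in 3 and opposite signs in 10 (r = -0.48, Spearman's rho = -0.60, with no test). Mouse 10 was 0.37 log2 above its group in hippocampus and 0.07 below in cortex. Mouse 15 was 0.33 below in hippocampus and 0.34 above in cortex. Mouse 38 was 0.47 below in hippocampus and 0.15 above in cortex. A different quantity, the correlation across all tested genes between the deviations of a mouse's 2 tissues, was computed once per mouse. It ran from -0.05 to 0.44 and was over 0.1 in 8 of the 13 mice.

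**Figure D3:**
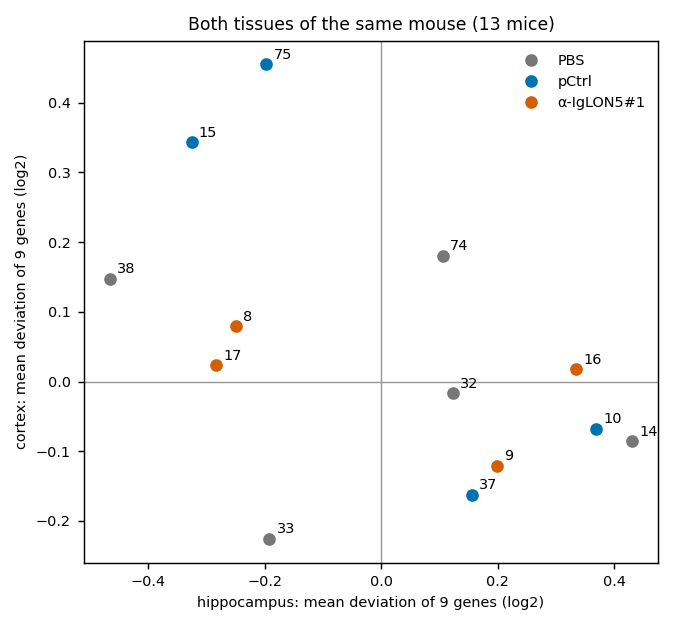
Mean deviation of the 9 genes from the group mean (log2) in hippocampus (horizontal axis) against cortex (vertical axis), 1 point per mouse for the 13 mice with both tissues, labeled by mouse number and colored by treatment. Most points (10 of 13) lie in the upper left and lower right quadrants.

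The comparison of treatments asked whether antibody infusion changed expression in the contralateral tissue. With edgeR's quasi-likelihood test, adjusted over 20271 genes, 0 of the 9 genes passed an adjusted p of 0.05 in any of the 6 comparisons of treatments, and DESeq2 called 0 as well. At an unadjusted p under 0.05 the count was 1 for α-IgLON5#1 against pCtrl hippocampi, 4 for α-IgLON5#1 against PBS cortices and 0 in the other 4. Of all tested genes, 21.9% and 9.26% were under it in those comparisons, and 8.14% to 15.4% in the other 4, so 1 of 9 in hippocampus is no larger a share than over all genes. These comparisons share groups, so the α-IgLON5#1 values enter both contrasts of a tissue.

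In hippocampus, 7.01% of all tested genes differed between α-IgLON5#1 and pCtrl. All 9 genes had lower values in α-IgLON5#1, and their median log2 fold change was -0.39, against 0.0012 over all genes. None of the 9 was below the controls without overlap, where 5% of all genes were. Mal showed the largest difference, at 74.0, 105, 142 and 84.5 CPM in α-IgLON5#1 mice 8, 9, 16 and 17 and 191, 115, 171 and 151 CPM in pCtrl mice 10, 15, 37 and 75. Mice 8, 9 and 17 lay below every pCtrl hippocampus, and mouse 16 lay above that of mouse 15. Its log2 fold change was -0.63 (SE 0.24, 95% interval -1.13 to -0.13, adjusted p = 0.116). Without the α-IgLON5#1 hippocampus of mouse 16 it was -0.84 with an adjusted p of 0.0356 (range over all alternatives 0.0356 to 0.711), the only alternative in which a gene of the 9 passed in this comparison. Mog gave -0.45 (interval -0.91 to 0.01), Opalin -0.42 (-0.84 to 0.01), Mbp -0.28 (-0.70 to 0.15) and Olig2 -0.17 (-0.39 to 0.05).

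This difference was smaller without the pCtrl hippocampi of mice 10 and 37. They were the 2 libraries apart in composition score and the 2 highest of their group in each of the 9 genes. The choice to leave them out was made after the data were seen. Leaving out the highest controls moves such a difference upward by itself, so it does not show what the difference rested on. Without mouse 10 alone the median of the 9 genes was -0.24, the value nearest to 0 among single libraries left out. Without both it was -0.05, 5 of 9 were lower, and Mal was -0.39 (adjusted p = 0.711). With the composition score as a covariate the median was -0.54 and 0 of the 9 passed. In the same 4 pCtrl hippocampi the summed level of 10 cortical neuron genes was 537 to 943 CPM, against 377 to 568.4 CPM in α-IgLON5#1. That of the 7 tested of 8 thalamus genes was 96.4 to 150 against 82.4 to 124 CPM. Their part in the result was not tested. Against PBS, α-IgLON5#1 hippocampi gave a median of -0.10, with 7 genes lower and 2 higher, 0 called and 4.29% of all genes called. Leaving out single libraries moved this median, to -0.27 when mouse 16 was dropped and to 0.0081, the opposite sign, when mouse 17 was. Mal was again lowest, at -0.42 (SE 0.23, interval -0.89 to 0.06, adjusted p = 0.416). Between pCtrl and PBS hippocampi, 0.192% of all genes were called, and the 9 genes were all higher in pCtrl, with a median of 0.22. Without mice 10 and 37 this median was -0.04, and leaving out single libraries it ran from 0.095 (without pCtrl mouse 10) to 0.37 (without PBS mouse 14).

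In cortex, 3.46% of all genes differed between α-IgLON5#1 and pCtrl and 3.05% between α-IgLON5#1 and PBS. Their median over the 9 genes was -0.10 on the log2 scale against pCtrl (6 lower, 3 higher) and -0.34 against PBS (9 lower). The first ran from -0.18 (without pCtrl mouse 11) to 0.0026 (without pCtrl mouse 75) when single libraries were left out. With the level of the 23 other mature genes as a covariate the second was -0.084, Mog was -0.14 and Cnp -0.13. Mog was 23.8, 27.9, 24.98 and 27.3 CPM in the α-IgLON5#1 cortices of mice 8, 9, 16 and 17, and 31.2, 34.2, 30.8, 40.2 and 40.9 CPM in the PBS cortices of mice 14, 32, 33, 38 and 74. Cnp was 168, 167, 161 and 172 CPM in the same α-IgLON5#1 mice, against 184, 232, 201, 249 and 235 CPM in PBS. For these 2 genes every α-IgLON5#1 cortex lay below every PBS cortex, as did 1.26% of all tested genes. The log2 fold changes were -0.45 (SE 0.21, adjusted p = 0.519) for Mog and -0.40 (SE 0.18, adjusted p = 0.44) for Cnp. Mal was 81.3, 83.8, 125 and 103 CPM in α-IgLON5#1 and 149, 139, 120, 168 and 176 CPM in PBS, with mouse 16 above PBS mouse 33. Its log2 fold change was -0.62 (SE 0.23, interval -1.09 to -0.14, adjusted p = 0.267). Cortices of pCtrl mice were also lower than PBS in all 9 genes, with a median of -0.30 that ran from -0.15 (without pCtrl mouse 11) to -0.40 (without pCtrl mouse 75), and 0 of 20271 genes were called there by edgeR, with 1650 at an unadjusted p under 0.05. The intervals of the 9 genes for α-IgLON5#1 against PBS reached from -1.09 to 0.18 on the log2 scale.

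**Figure D4:**
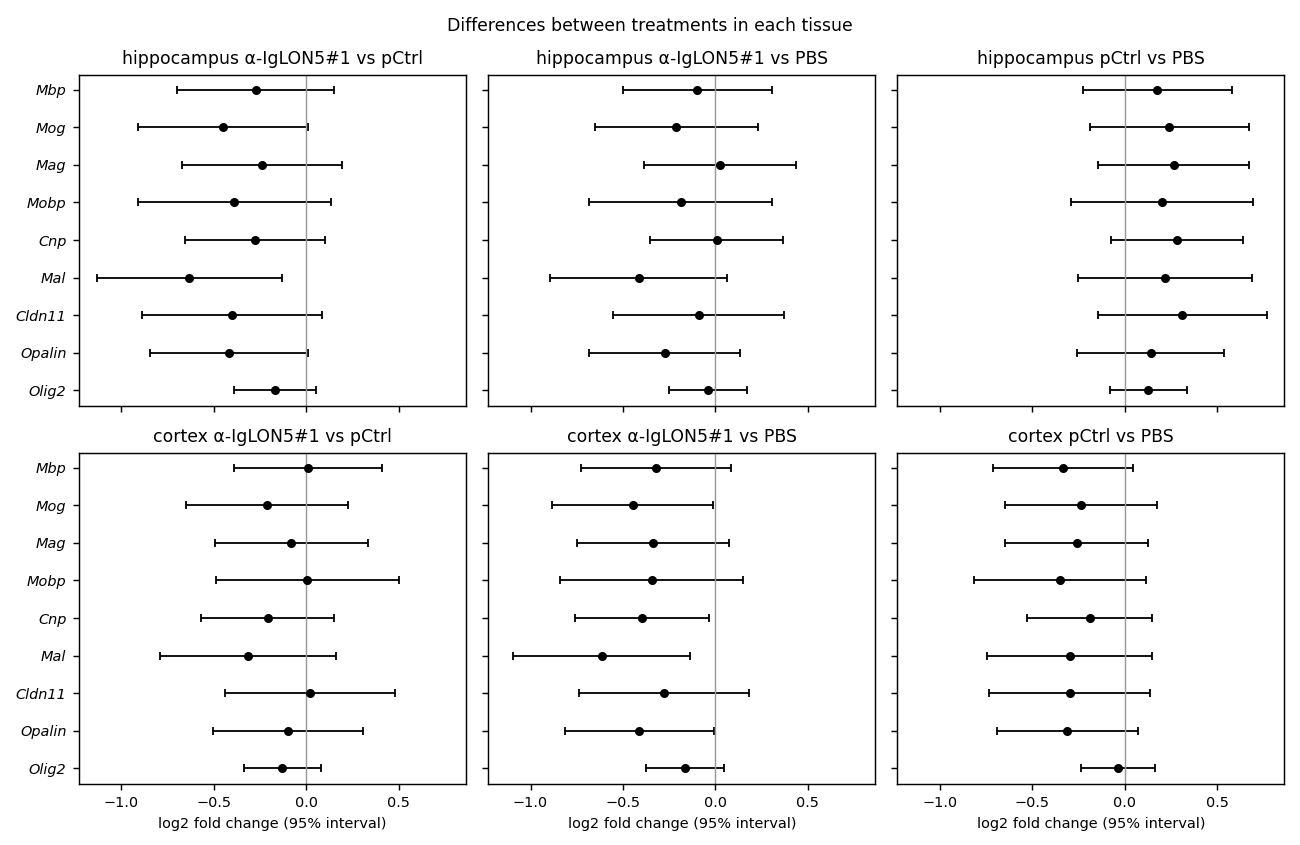
Log2 fold change (points) with its 95% interval (bars) for each of the 9 genes in the 3 comparisons of treatments in hippocampus (top) and cortex (bottom), from edgeR. The intervals of Mal leave 0 in α-IgLON5#1 against pCtrl hippocampi and against PBS cortices, those of Mog, Cnp and Opalin in the latter, and no adjusted p is under 0.05.

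The tissues were compared within each treatment. The median of the log2 fold changes, cortex over hippocampus, was 0.13 in PBS mice (9 of 9 higher), -0.36 in pCtrl mice (9 lower) and -0.08 in α-IgLON5#1 mice (7 lower). Leaving out single libraries moved these medians to between 0.034 (without the PBS hippocampus of mouse 38) and 0.24 (mouse 14), between -0.50 (without the pCtrl cortex of mouse 75) and -0.21 (the hippocampus of mouse 10), and between -0.18 (without the α-IgLON5#1 hippocampus of mouse 17) and -0.012 (mouse 16). By edgeR 0 of the 9 genes passed in each treatment, 0 at an unadjusted p under 0.05, and 0 by DESeq2, where 26.7%, 19.9% and 23.9% of all genes passed by edgeR. Without the hippocampi of mice 10 and 37 the median in pCtrl mice was -0.04. The effect of α-IgLON5#1 against pCtrl in hippocampus minus that in cortex had a median of -0.28 and against PBS of 0.20. With single libraries left out, the first ran from -0.39 (pCtrl cortex of mouse 75) to -0.14 (pCtrl hippocampus of mouse 10), and the second from 0.069 (PBS hippocampus of mouse 38) to 0.34 (that of mouse 14). Without the pCtrl hippocampi of both mice 10 and 37 the first was 0.016, the opposite sign. By edgeR 0 of the 9 genes passed either interaction, with 0 at an unadjusted p under 0.05 and 0 by DESeq2, where 0% and 0.00493% of all genes passed by edgeR.

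The other 8 genes were also set against Mbp in the same library, and Mal was the one of them that separated the α-IgLON5#1 from both control groups in hippocampus. This ratio was examined after the values were seen. Mal was 6.84, 7.29, 8.35 and 8.43% of Mbp CPM in the α-IgLON5#1 hippocampi of mice 8, 9, 16 and 17. In pCtrl hippocampi it was 9.27, 8.90, 9.92 and 12.2%, and in PBS hippocampi 9.32, 9.56, 9.49, 9.46 and 10.7%. Every α-IgLON5#1 hippocampus lay below every control hippocampus, as did 0.261% of all genes set against Mbp for pCtrl and 0.0987% for PBS. In α-IgLON5#1 cortices it was 6.62, 7.79, 8.80 and 8.41%, below every PBS cortex (8.89 to 10.9%), as were 0.0592% of genes, while mouse 16 overlapped the pCtrl values (0.158% of genes did not), whose range was 8.67 to 12.96%. With the level of the 23 other mature genes as a covariate, Mal had a log2 fold change of -0.36 (SE 0.15, adjusted p = 0.195) against pCtrl and -0.41 (SE 0.14, adjusted p = 0.121) against PBS in hippocampus. In cortex it was -0.23 (adjusted p = 0.473) against pCtrl and -0.30 (adjusted p = 0.544) against PBS, and none of these 4 passed. The separation depended on Mbp as the reference. On the log2 scale relative to the mean of the 23 other mature genes, Mal was 0.92, 1.19, 1.57 and 1.20 in the α-IgLON5#1 hippocampi of mice 8, 9, 16 and 17. Mouse 16 then lay above the lowest pCtrl (1.48) and the lowest PBS hippocampus (1.38), so the groups overlapped.

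**Figure D5:**
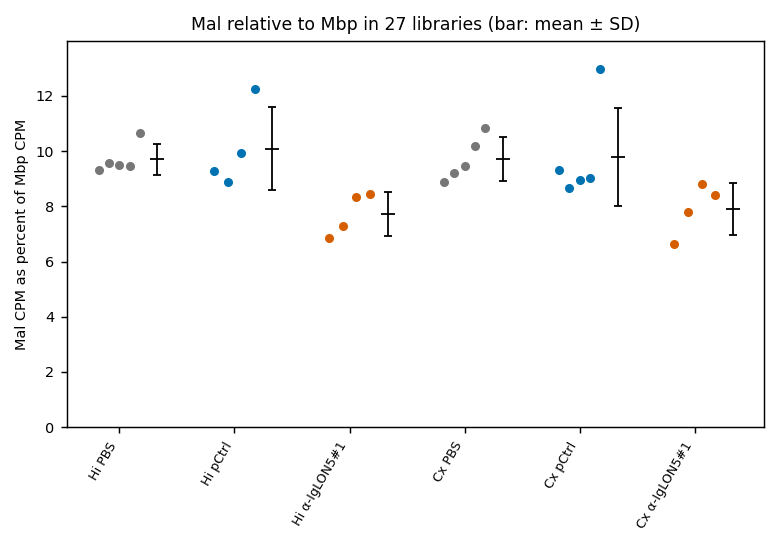
Mal CPM as a percent of Mbp CPM (vertical axis from 0) in each of the 27 libraries by tissue and treatment; the bar is the group mean ± SD. The 4 α-IgLON5#1 hippocampi, from 6.84 to 8.43%, lie below all 9 control hippocampi, which start at 8.90%.

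Other genes of the lineage were counted by list. In hippocampus, α-IgLON5#1 against pCtrl, 4.23% of all genes rose and 2.78% fell. In this comparison 1 of the 23 other mature genes fell, Enpp2 (autotaxin), at 95.04 ± 14.7 against 129 ± 32.4 CPM (SD, n = 4 each; log2 fold change -0.44, adjusted p = 0.0402), beside a list median of -0.22. Of 18 myelin lipid synthesis genes, 4 fell, among them Hmgcs1 (-0.54, adjusted p = 0.0029), Idi1 (-0.65) and Sqle (-0.40), enzymes of cholesterol synthesis, which other cells share, and the list median was -0.29. Of 10 node and paranode genes 2 fell, Cadm4 (-0.31) and the potassium channel Kcna2 (-0.31), and of 10 genes of newly formed oligodendrocytes 1 fell, Tmem163 (-0.56). Without the pCtrl hippocampi of mice 10 and 37, 0 genes of these 4 lists passed, and the medians were 0.06 for the other mature genes, -0.11 for lipid synthesis, 0.0073 for node and paranode and 0.10 for newly formed oligodendrocytes. Against PBS in hippocampus, and against either control in cortex, edgeR and DESeq2 called 0 of the 61 genes of these 4 lists with all libraries, with 9 at an unadjusted p under 0.05 in hippocampus, and 2 (pCtrl) and 7 (PBS) in cortex. Against pCtrl in hippocampus edgeR called 8 of the 61 and DESeq2 13, with 26 at an unadjusted p under 0.05. Between pCtrl and PBS hippocampi each tool called 1, with 18 under it. By edgeR, 21.9% and 14% of all genes were under it in these comparisons, and 7.01% and 0.192% were called. The share under it was 15.3% against PBS in hippocampus, and 15.4% (pCtrl) and 9.26% (PBS) in cortex. DESeq2 shares over all genes are not given here. Without the pCtrl hippocampi of mice 10 and 37 the edgeR fit against pCtrl called 244 genes in all. In it Hmgcs1 had a log2 fold change of -0.41 (adjusted p = 0.157) and Enpp2 of -0.088 (adjusted p = 0.872). Idi1 stayed near its value with all libraries, at -0.56 (adjusted p = 0.305), and Sqle was -0.25 (adjusted p = 0.544). With all libraries, 21.9% of all genes were at an unadjusted p under 0.05 in α-IgLON5#1 against pCtrl hippocampi. In this comparison 0 of the 10 precursor genes passed by edgeR and 1 by DESeq2. There was 1 at an unadjusted p under 0.05, and the median of the 10 was 0.0059. Pdgfra, the receptor of precursors, was 72.3 ± 8.11 against 77.5 ± 3.84 CPM. Of the 9 other transcription factors 0 passed by either tool (2 at an unadjusted p under 0.05), with Olig1 at 86.6 ± 6.92 against 92.4 ± 13.8 CPM. Of 6 Schwann cell genes 5 were tested and 0 passed by either tool (1 at an unadjusted p under 0.05), and their summed level ran from 14.9 to 29.2 CPM over all libraries.

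Genes of another list rose in part. Of 10 genes reported in disease-associated oligodendrocytes, 5 rose in each α-IgLON5#1 comparison and 0 between the control groups. Of all tested genes, 4.23% rose against pCtrl and 3.81% against PBS in hippocampus, and 3.01% and 2.97% in cortex. B2m was 165 ± 33.3 CPM in α-IgLON5#1 against 71.3 ± 5.24 CPM in pCtrl hippocampi (log2 fold change 1.21, adjusted p = 4.61e-07). H2-D1 (1.24), H2-K1 (1.36), C4b (1.42) and Serpina3n (1.83) also rose there. Without the pCtrl hippocampi of mice 10 and 37, 3 of the 10 passed, with a median of 1.18 against 1.22 with them. The calls of C4b (1.21, adjusted p = 0.0918) and Serpina3n (1.38, adjusted p = 0.377) were lost. H2-D1 and H2-K1 are close paralogs, so reads can be split between them. B2m, H2-D1 and H2-K1 are subunits of class I antigen presentation and C4b is a complement factor, and microglia, astrocytes and endothelial cells express them too. In the same comparison 7 of 8 microglia genes rose (5 without those 2 libraries), with a summed level of 576 to 1049 CPM in α-IgLON5#1 against 364 to 424 CPM in pCtrl hippocampi. Of 8 astrocyte genes 1 rose, Gfap (1.31, adjusted p = 0.0026), and the median of the list was 0.021. Without those 2 libraries Gfap had a log2 fold change of 1.21 (adjusted p = 0.116). The cells in which these transcripts lay were not tested.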

How the data were processed

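Bulk mRNA of 27 hippocampi and cortices was sequenced. The authors deposited a table of raw counts (reads assigned to each gene), with no normalization. They aligned reads to GRCm38 with STAR; the counting program, annotation and strand setting are not given in the sources used here. Gene IDs were matched without version to GENCODE M21 (55227 of 55487 had a symbol). Genes that reached 10 counts or more in 4 or more libraries were tested with edgeR 4.0.16 in R 4.3.3 (TMM, glmQLFit, glmQLFTest, 6 groups, no covariate), with Benjamini-Hochberg adjustment over 20271 genes and a threshold of 0.05. DESeq2 1.42.0 was an alternative. CPM used TMM library sizes, and log2 CPM a prior count of 1. Intervals are 95%. Totals of 19385642 to 58550621 counts gave each of the 9 genes at least 194 counts per library. Simulated counts were also run through the same fit, and the outcome is not reported here. All 9 genes were named; from each of 19 other lists, up to 4 genes with the smallest adjusted p where called, otherwise up to 2 with the highest level; and the 5 genes most like the 9. Some genes that this rule names are not reported here. The members and lists were chosen with earlier results of these data known. Labels number the mice, and a number shared between tissues is the same mouse, so libraries of a group are separate mice. No 2 libraries of a group repeated each other (over 48 pairs, chi-square divided by its degrees of freedom was never under 4.42).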

Additional observations from a re-analysis of the deposited data

Results flagged for a closer look

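Values of a single library were set against the rest of its group with Dixon's ratio at the 95% level, for the level of each of the 9 genes and for 8 of them as a percent of Mbp CPM. Of 102 sets of 4 or 5 libraries 6 stood out, where chance gives about 1 in 20. All 6 concern the ratio to Mbp, and none the level itself. In the PBS cortex of mouse 14, Cnp was 11.0% and Mag 5.52% of Mbp, against next values of 14.5% and 7.19%. In the α-IgLON5#1 hippocampus of mouse 16, Mag was 6.88% of Mbp, against a next value of 8.07%. Mal was 12.96% of Mbp in the pCtrl cortex of mouse 75, against a next value of 9.33%, and 10.7% in the PBS hippocampus of mouse 74, against 9.56%. Olig2 was 1.28% of Mbp in the α-IgLON5#1 cortex of mouse 16, against 1.76%. No interaction of treatment and tissue passed for the 9 genes.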

How the results depend on the processing

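With every alternative, the count of the 9 genes that passed was 0 in each of the 11 comparisons, with 2 exceptions. Without the α-IgLON5#1 hippocampus of mouse 16 it was 1 (Mal) for α-IgLON5#1 against pCtrl hippocampi, so that leaving out single libraries gave 0 to 1. With the level of the other mature genes as a covariate it was 1 for cortex against hippocampus in α-IgLON5#1 mice (Cnp, -0.23, adjusted p = 0.0278). This covariate was centered within each tissue, so cortex and hippocampus were not compared at an equal mature level. With that covariate the medians of the 9 genes lay between -0.098 and -0.026 in the 11 comparisons, against -0.39 to 0.22 without it. The log2 fold change of Mal in hippocampus against pCtrl ran from -0.84 to -0.36. The 13 mice with both tissues are the same animals, so the block is a true pairing, and with the replicate block 0 genes passed in the 3 tissue comparisons and the 2 interactions. Only mice 8 to 17 gave no comparison with PBS, since fewer than 2 PBS libraries carry these numbers. Of 1863 log2 fold changes, 126 changed sign, and 0 of these passed the threshold; the cause was not tested. With the level of the 23 other mature genes as a covariate (chosen after seeing the data), the values of opposite sign in α-IgLON5#1 against pCtrl hippocampi were 0.0084 for Mbp and 0.070 for Mag. In pCtrl against PBS hippocampi they were -0.097 for Mbp, -0.028 for Mog, -0.037 for Mag, -0.097 for Mobp, -0.055 for Mal, -0.016 for Cldn11 and -0.13 for Opalin. In α-IgLON5#1 against pCtrl cortices they were 0.0047 for Mag. In α-IgLON5#1 against PBS cortices they were 0.080 for Cldn11. In pCtrl against PBS cortices they were 0.023 for Cnp and 0.038 for Olig2. In cortex against hippocampus in PBS mice they were -0.080 for Mbp, -0.16 for Mog, -0.13 for Mag, -0.050 for Mobp, -0.099 for Cnp, -0.096 for Mal, -0.066 for Cldn11, -0.14 for Opalin and -0.072 for Olig2. In cortex against hippocampus in α-IgLON5#1 mice they were 0.013 for Mal. In the interaction against pCtrl they were 0.065 for Mag, 0.13 for Cnp and 0.036 for Olig2. In the interaction against PBS they were -0.053 for Mbp, -0.066 for Mog, -0.15 for Mobp, -0.11 for Mal, -0.16 for Cldn11 and -0.10 for Opalin. With the pCtrl hippocampi of mice 10 and 37 left out (chosen after seeing the data), the values of opposite sign in α-IgLON5#1 against pCtrl hippocampi were 0.047 for Mbp, 0.078 for Mag, 0.043 for Cnp and 0.0094 for Opalin. In pCtrl against PBS hippocampi they were -0.15 for Mbp, -0.033 for Mog, -0.056 for Mag, -0.065 for Mobp, -0.038 for Cnp, -0.025 for Mal, -0.022 for Cldn11 and -0.28 for Opalin. In cortex against hippocampus in pCtrl mice they were 0.049 for Opalin. In the interaction against pCtrl they were 0.016 for Mbp, 0.013 for Mog, 0.14 for Mag, 0.23 for Cnp, 0.086 for Opalin and 0.059 for Olig2. With the composition score as a covariate, the values of opposite sign in α-IgLON5#1 against pCtrl cortices were -0.021 for Mbp, -0.050 for Mobp and -0.036 for Cldn11. In pCtrl against PBS cortices they were 0.0069 for Olig2. With no count filter, the values of opposite sign in α-IgLON5#1 against PBS hippocampi were -0.0039 for Mag and -0.020 for Cnp. In cortex against hippocampus in PBS mice they were -0.0022 for Olig2. With at least 10 counts required in every library, the values of opposite sign in cortex against hippocampus in PBS mice were -0.013 for Olig2. With only mice 8 to 17, the values of opposite sign in α-IgLON5#1 against pCtrl cortices were 0.0084 for Mag. With the replicate block, the values of opposite sign in the interaction against pCtrl were 0.029 for Cnp. Leaving out each library in turn, the ranges that crossed 0 in α-IgLON5#1 against PBS hippocampi were -0.25 to 0.065 for Mbp, -0.27 to 0.057 for Cldn11, -0.076 to 0.13 for Mag, -0.10 to 0.11 for Cnp and -0.11 to 0.023 for Olig2. Ranges in pCtrl against PBS hippocampi were -0.037 to 0.28 for Opalin. Ranges in α-IgLON5#1 against pCtrl cortices were -0.11 to 0.12 for Mbp, -0.15 to 0.19 for Mobp, -0.13 to 0.14 for Cldn11, -0.22 to 0.053 for Mag and -0.25 to 0.0026 for Opalin. Ranges in pCtrl against PBS cortices were -0.083 to 0.040 for Olig2. Ranges in cortex against hippocampus in PBS mice were -0.072 to 0.070 for Olig2, -0.029 to 0.23 for Mog and -0.047 to 0.16 for Opalin. Ranges in cortex against hippocampus in α-IgLON5#1 mice were -0.17 to 0.16 for Mal, -0.060 to 0.22 for Cldn11, -0.20 to 0.042 for Opalin, -0.037 to 0.26 for Mobp and -0.19 to 0.075 for Mbp. Ranges in the interaction against pCtrl were -0.17 to 0.060 for Cnp and -0.11 to 0.012 for Olig2. Ranges in the interaction against PBS were -0.045 to 0.33 for Mobp and -0.011 to 0.34 for Mal. The alternatives with RLE normalization, only the groups compared and DESeq2 turned no sign, and 0 of the 9 genes passed with over 2-fold required. With 4 or 5 mice per group, standard errors reached 0.25 on the log2 scale for α-IgLON5#1 against pCtrl hippocampi.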
